A study of Mus musculus with 6 samples.

Results

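The genes described here encode the machinery that docks, primes and fuses insulin granules: SNARE proteins and their partners, synaptotagmins, Rab GTPases and their effectors, Doc2 proteins, complexins, CAPS proteins and exocyst subunits. They were chosen by name as a list of 46 genes. A gene was read from a probe that the array annotation assigned to that exact symbol and to no other gene, and where it had several such probes, the one with the highest mean signal over all samples stood for it. Under this rule 45 of the 46 genes had a probe, out of 20204 genes with one on the array, and Stxbp3a had none under that symbol. These 45 members had 54 probes of their own, 1 each for 39 members and several for 6 members.

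The study asked how short telomeres affect the islets of Langerhans, the endocrine cells of the pancreas. RNA was taken from purified islets of 3 mTR-/-G4 mice and 3 wild-type mice, all C57BL/6 males aged 15 months. The mTR-/-G4 mice lack the RNA component of telomerase in every cell and come from the fourth generation bred without it, so that their telomeres are short. Each sample was taken as 1 mouse, and the samples of each genotype are lettered a, b and c. Values are log2 signals of an exon array, which compare samples for 1 probe and do not compare the abundance of different genes. The loss of the telomerase RNA could not be checked, because its only probe is shared with another gene.

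Insulin is released when a secretory granule fuses with the plasma membrane. Vamp2 on the granule zips together with Stx1a and Snap25 on the plasma membrane, Munc18 proteins hold syntaxins ready, and the ATPase Nsf with its adaptor Napa takes the used complexes apart. Rab3 and Rab27 proteins with their effectors tether granules near the membrane, CAPS proteins prime them, and synaptotagmins and Doc2 proteins are C2-domain proteins, several of which sense the calcium that triggers fusion.

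The 4 promoters below are those of the Rab3 genes whose signals differed between the genotypes in opposite directions, Rab3b and 1 or more Rab3c probes higher and Rab3d lower, and of Exoc4, the member with the most negative difference. Each runs 5′ to 3′ on the gene's own strand, with 250 bases before the start of transcription and 50 after it, from RefSeq on GRCm38.p6. Capitals mark matches to the GC box GGGCGG on either strand and to the TATA box TATAAA.
Rab3b: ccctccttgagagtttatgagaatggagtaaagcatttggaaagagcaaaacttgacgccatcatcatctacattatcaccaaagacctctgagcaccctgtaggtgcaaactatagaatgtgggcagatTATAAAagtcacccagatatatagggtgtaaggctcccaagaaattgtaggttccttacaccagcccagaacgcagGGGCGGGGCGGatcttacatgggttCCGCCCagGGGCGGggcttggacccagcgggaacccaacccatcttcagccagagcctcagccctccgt
Rab3c: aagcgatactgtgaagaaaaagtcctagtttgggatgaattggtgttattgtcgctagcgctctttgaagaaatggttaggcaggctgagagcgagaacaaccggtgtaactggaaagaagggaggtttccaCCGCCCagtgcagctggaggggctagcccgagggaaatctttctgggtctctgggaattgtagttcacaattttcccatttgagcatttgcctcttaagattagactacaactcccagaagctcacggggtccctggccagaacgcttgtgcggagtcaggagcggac
Rab3d: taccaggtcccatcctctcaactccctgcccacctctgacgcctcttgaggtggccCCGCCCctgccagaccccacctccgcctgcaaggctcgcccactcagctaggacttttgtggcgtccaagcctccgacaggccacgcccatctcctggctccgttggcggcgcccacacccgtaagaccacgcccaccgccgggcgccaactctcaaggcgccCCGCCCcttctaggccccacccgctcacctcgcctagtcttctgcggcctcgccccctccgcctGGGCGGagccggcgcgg
Exoc4: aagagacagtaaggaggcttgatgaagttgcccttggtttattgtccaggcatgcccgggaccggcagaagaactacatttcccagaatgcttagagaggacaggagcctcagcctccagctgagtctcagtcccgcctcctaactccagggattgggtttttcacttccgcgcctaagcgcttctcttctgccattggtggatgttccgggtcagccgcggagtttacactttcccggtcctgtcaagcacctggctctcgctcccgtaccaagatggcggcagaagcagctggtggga
The Rab3b window is chr4:108878820-108879119 on the plus strand, Rab3c is chr13:110280157-110280456 on the minus strand, Rab3d is chr9:21918134-21918433 on the minus strand and Exoc4 is chr6:33248878-33249177 on the plus strand. The Rab3b promoter held 4 GC boxes, of which 1 pair overlaps, and 1 TATA box. Rab3d held 3 GC boxes and no TATA box, Rab3c held 1 GC box, and Exoc4 held neither motif. The bases G and C made up 71.0% of the Rab3d window, 56.3% of Exoc4, 51.7% of Rab3b and 50.7% of Rab3c. A GC box lay in 35.7% of the 32851 promoter windows of the RefSeq table and in 21 of 39 windows of the 33 members found in it (53.8%). TATAAA lay in 13.6% of all windows and, among the members' windows, in that of Rab3b alone. The cAMP response element TGACGTCA and the E-box CAGATG were searched on both strands too and lay in 1.79% and 17.2% of all windows, but in none of the 4 shown. A match to these letters describes the sequence and does not show a bound site.

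Some properties of the samples bear on these genes. Endocrine markers averaged a log2 signal of 11.28 ± 0.07 in mTR-/-G4 islets and 11.40 ± 0.07 in wild-type islets (SD, n = 3 each). Every mTR-/-G4 sample was lower, by a small margin (two-sided exact permutation p = 0.1), and 0 of 17 endocrine markers passed the threshold defined below. Markers of acinar cells, the enzyme-secreting cells around the islets, averaged 9.96, 9.36 and 8.98 in mTR-/-G4 a, b and c, against 8.43, 7.60 and 7.52 in wild-type a, b and c. The genotypes did not overlap, 18 of the 20 acinar markers measured passed as higher and 1 as lower, and the two-sided exact permutation p of the list's mean was 0.1, the smallest that 3 against 3 samples allow. Neuronal markers, which matter here because neurons use the same machinery, averaged 6.48 in mTR-/-G4 islets and 6.35 in wild-type islets (exact permutation p = 0.7). Signals of mTR-/-G4 b had the narrowest interquartile range, 2.05, against 2.56 and 2.42 in the other mTR-/-G4 samples and 2.63 to 2.79 in wild-type samples. Endothelial markers averaged 7.67 in mTR-/-G4 islets and 8.09 in wild-type islets, a difference of -0.43 with 1 of 5 passing as lower (Kdr). Duct markers averaged 5.20 in mTR-/-G4 islets and 4.80 in wild-type islets, a difference of 0.40 with 1 of 4 passing as higher (Muc1), and the exact permutation p was 0.2 for both lists. Leukocyte and stromal markers differed by -0.01 and 0.14. The part of these cell types in the members' differences was not tested. A fit with an acinar covariate is given below, but acinar signal separates the genotypes, so it cannot decide the question.

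Most of the exocytosis machinery differed little between the genotypes. At the threshold of the study, a fold change above 1.5 with an unadjusted p under 0.05, here by limma, 1 of 45 members passed as higher, the calcium sensor Doc2b, 0 passed as lower, and 44 did not pass. Over all genes 3.57% passed, 1.94% as higher and 1.64% as lower, so the members' share of 2.22% was near that of the array. An unadjusted p under 0.05 was reached by 11 members (24.4%), against 22.1% of all genes. Of the 11, Doc2b, Rab3b and Sytl2 were higher, where 14.2% of genes were, and Stxbp5, Syt7, Syt14, Rab3d, Sytl1, Nsf, Cadps and Exoc4 were lower, where 7.96% of genes were. After Benjamini-Hochberg adjustment over all probes 0 members had p under 0.05 by limma, the lowest being 0.125 for Doc2b, and 0 by the methods' t-test. Every mTR-/-G4 sample lay on the same side of every wild-type sample for 19 members (42.2%), 9 higher and 10 lower, against 37.2% of all genes. Without mTR-/-G4 b, Doc2b was again the member that passed (0.80), where 2.31% of all genes passed. In that fit 8 members had an unadjusted p under 0.05, and the share of all genes with such a p is not given. In bulk RNA, fewer cells of a type and less RNA per cell cannot be told apart for any of these genes.

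For 32 of 45 members (71.1%) the 95% interval of the difference lay within 1.5-fold in both directions, near the share of 63.5% over all genes. Of these 32 members, 6 had a probe below the median signal of the array. For the other 13 the interval reached past 1.5-fold. The median log2 difference was 0.01 over the members, against 0.10 over all genes, and single members ranged between -0.51 for Exoc4 and 0.71 for Doc2b. The plot of all members shows Doc2b as the only one whose point lies beyond 1.5-fold.

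**Figure D1:**
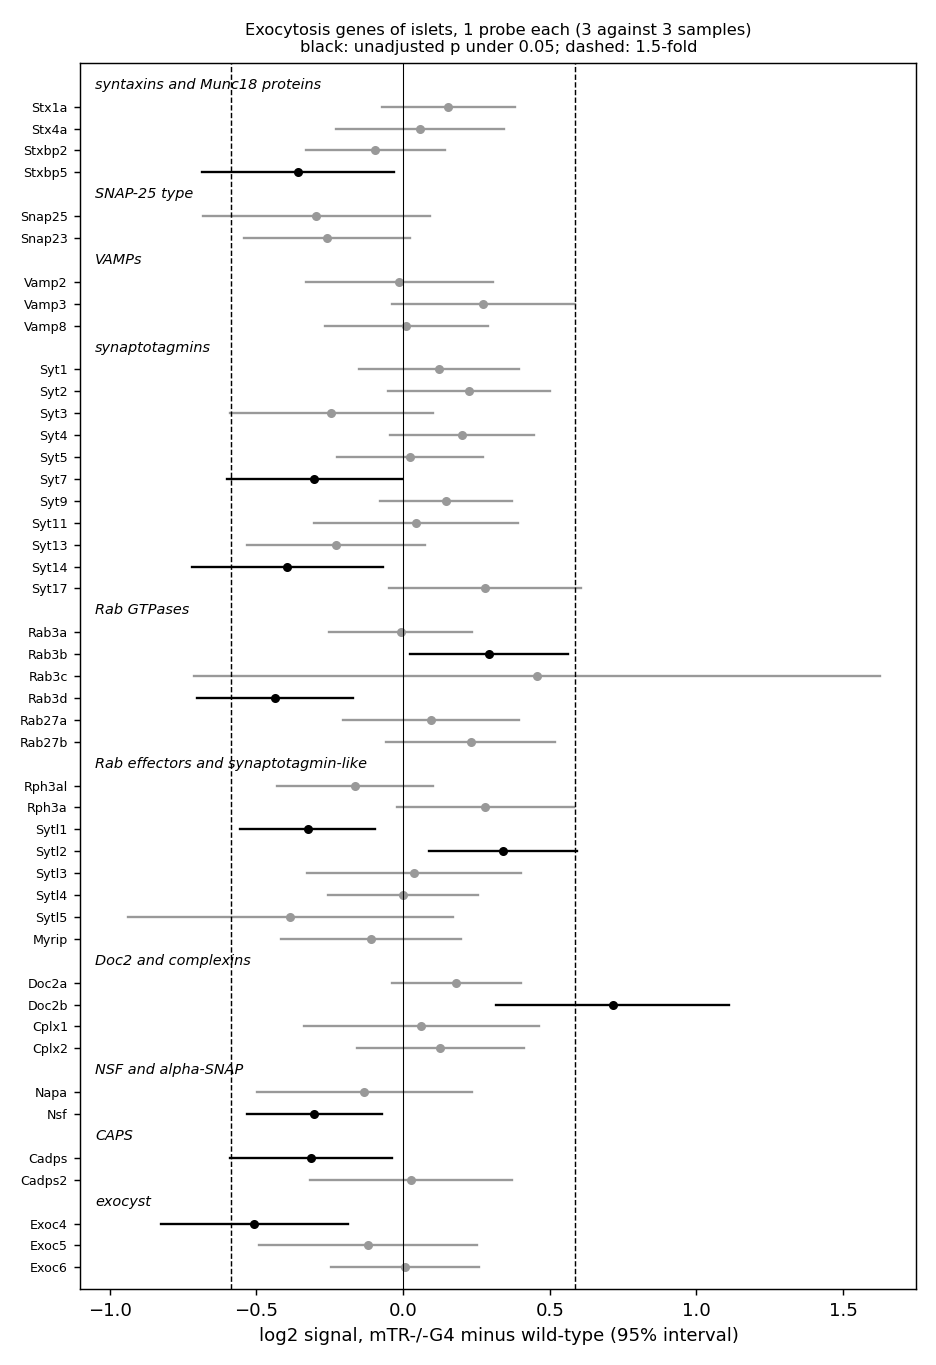
Difference in log2 signal, mTR-/-G4 minus wild-type, of the 45 members grouped by role, with 95% intervals from limma (3 against 3 samples). Black marks the 11 members with an unadjusted p under 0.05, dashed lines mark 1.5-fold, and Doc2b at 0.71 is the single point beyond them.

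The syntaxins, SNAP-25 proteins and VAMPs, which form the fusion complex itself, held none that passed. Stx1a, the syntaxin of the plasma membrane, had log2 signals of 5.21, 5.28 and 5.18 in mTR-/-G4 a, b and c, against 4.99, 5.11 and 5.11 in wild-type a, b and c. The genotypes did not overlap, but the difference was 0.15 (SE 0.10, limma adjusted p = 0.325). It was 0.05 when the 6 arrays were given 1 common distribution. Its partner Snap25 had 11.04, 10.47 and 10.79 in mTR-/-G4 samples, against 10.93, 11.06 and 11.20 in wild-type samples. The groups overlapped through mTR-/-G4 a, mTR-/-G4 b was the lowest of the 6 samples, and the difference was -0.30 (SE 0.16, limma adjusted p = 0.285), or -0.15 without mTR-/-G4 b. Vamp2, the SNARE of the granule, had 10.18, 9.75 and 9.81 in mTR-/-G4 samples, against 9.98, 9.89 and 9.90 in wild-type samples, and differed by -0.01 (SE 0.14). Its 95% interval, -0.33 to 0.31, lay within 1.5-fold. The related Snap23, Vamp3, Vamp8 and Stx4a differed by between -0.26 and 0.27, none with an unadjusted p under 0.05.

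Among the regulators of these SNAREs, the Munc18 protein Stxbp2 had 8.08, 7.88 and 8.07 in mTR-/-G4 samples, against 8.09, 8.10 and 8.13 in wild-type samples. The difference was -0.09 (SE 0.10), although the groups did not overlap. Stxbp5, known as tomosyn, which binds syntaxin and SNAP-25 and holds fusion back, had 7.98, 7.54 and 7.95 in mTR-/-G4 samples, against 8.18, 8.15 and 8.22 in wild-type samples. All mTR-/-G4 values lay below the wild-type ones and mTR-/-G4 b was the lowest. The difference was -0.36 (SE 0.14, limma adjusted p = 0.202) and -0.22 without mTR-/-G4 b. Nsf, the ATPase that takes SNARE complexes apart, had 6.46, 6.37 and 6.45 in mTR-/-G4 samples, against 6.65, 6.74 and 6.81 in wild-type samples. The groups did not overlap and differed by -0.30 (SE 0.10, limma adjusted p = 0.170), which is below 1.5-fold. Its adaptor Napa overlapped between genotypes, with 9.60, 9.02 and 9.26 in mTR-/-G4 samples, against 9.38, 9.46 and 9.45 in wild-type samples.

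None of the 11 synaptotagmins passed the threshold. Of these 4 had a negative difference (36.4%), near the share of 36.6% over all genes. Syt7, a calcium sensor of insulin granules, had 7.74, 7.49 and 7.82 in mTR-/-G4 samples, against 7.85, 8.03 and 8.08 in wild-type samples. The highest mTR-/-G4 and the lowest wild-type value were close, and the difference was -0.30 (SE 0.13, limma adjusted p = 0.214). Syt14, a synaptotagmin that does not bind calcium, had 8.47, 8.14 and 8.41 in mTR-/-G4 samples, against 8.55, 8.77 and 8.88 in wild-type samples. It had the most negative difference of the family, -0.39 (SE 0.14, limma adjusted p = 0.184), with no overlap. Syt13, also without calcium binding, had 9.97, 9.59 and 9.86 in mTR-/-G4 samples, against 9.93, 10.13 and 10.05 in wild-type samples, which overlapped. The other members of the family, Syt1, Syt2, Syt3, Syt4, Syt5, Syt9, Syt11 and Syt17, differed by between -0.24 and 0.28, none with an unadjusted p under 0.05. Of these, Syt2, Syt4 and Syt9 were higher in every mTR-/-G4 sample than in every wild-type sample, by 0.22, 0.20 and 0.15. The second probe of Syt11 differed by -0.11 (SE 0.34), where the first gave 0.04.

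The Rab3 GTPases, close paralogs that sit on secretory granules, differed in direction. Rab3d, which is also known from the zymogen granules of acinar cells, had 8.01, 7.87 and 8.10 in mTR-/-G4 samples, against 8.39, 8.33 and 8.56 in wild-type samples. The groups were separate, and the difference was -0.44 (SE 0.11, 95% interval -0.70 to -0.17, limma adjusted p = 0.136), so its point estimate stayed within 1.5-fold. Rab3b had 8.38, 8.51 and 8.42 in mTR-/-G4 samples, against 8.21, 8.25 and 7.97 in wild-type samples. It was higher in all mTR-/-G4 samples, by 0.29 (SE 0.11, limma adjusted p = 0.202). Rab3a, the main Rab3 of neurons, had 8.13, 8.24 and 8.29 in mTR-/-G4 samples, against 8.14, 8.23 and 8.32 in wild-type samples. The 2 genotypes were nearly identical for Rab3a, with a difference of -0.01 (SE 0.10, 95% interval -0.25 to 0.24).

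Rab3c was the least certain member, because its 4 probes gave different answers. Its brightest probe, 6816016, had 7.22, 5.80 and 7.06 in mTR-/-G4 samples, against 6.49, 6.90 and 5.32 in wild-type samples. These values overlapped widely, and the difference was 0.46 with the largest standard error of all members, 0.50. The second probe, 6816015, had 5.81, 5.72 and 6.03 in mTR-/-G4 samples, against 5.0, 4.93 and 4.96 in wild-type samples. It passed the threshold with no overlap, a difference of 0.89 (SE 0.11, limma adjusted p = 0.0929), and was 1 of the 6.23% of all probes that passed. Probe 6816017 differed by 0.90 (SE 0.40) and overlapped through mTR-/-G4 c, and probe 6816018 differed by 0.14 (SE 0.17). With the mean of all 4 probes, Rab3c passed the threshold at 0.60 (limma adjusted p = 0.150).

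**Figure D2:**
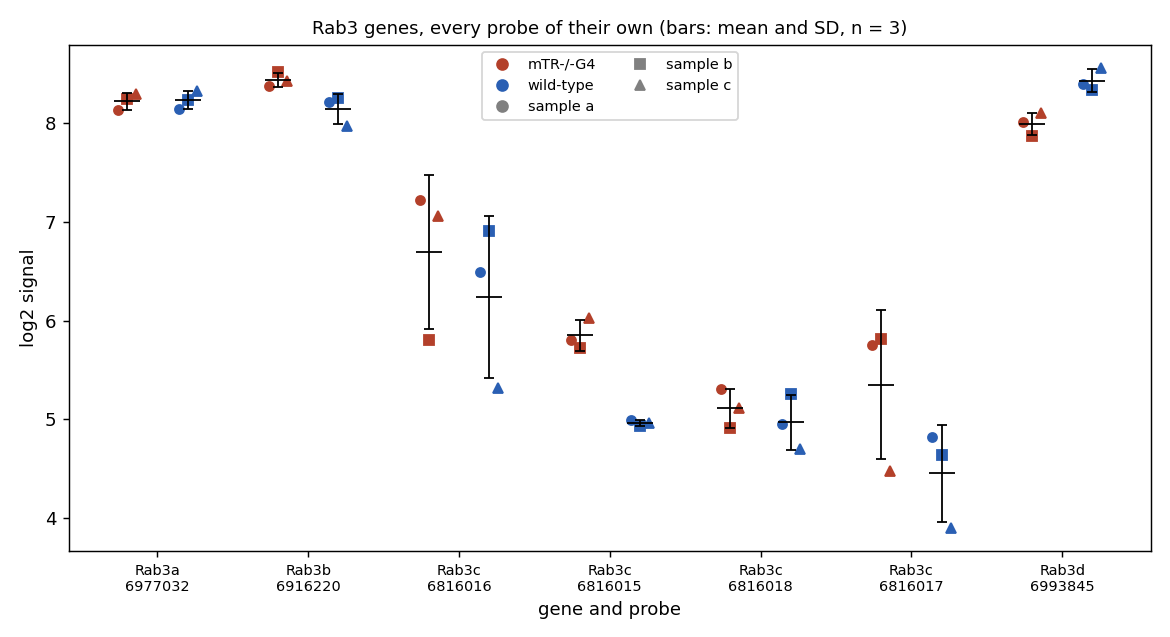
Log2 signal of every probe of the Rab3 genes in the 3 mTR-/-G4 samples and the 3 wild-type samples, with mean and SD as bars and the sample letter as the marker shape. The 4 Rab3c probes differ by between 0.14 and 0.90, Rab3d is lower and Rab3b higher in every mTR-/-G4 sample, and heights of different probes cannot be compared.

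Rab27a, which brings granules to the plasma membrane, had 9.22, 8.82 and 9.0 in mTR-/-G4 samples, against 8.86, 9.0 and 8.89 in wild-type samples. The groups overlapped and differed by 0.10 (SE 0.13), with a 95% interval of -0.20 to 0.39. Rab27b differed by 0.23 (SE 0.12). The effectors of Rab27 were mixed. Sytl1 had 5.77, 5.66 and 5.67 in mTR-/-G4 samples, against 6.03, 5.95 and 6.10 in wild-type samples. Sytl2 had 5.10, 5.10 and 5.08 in mTR-/-G4 samples, against 4.87, 4.79 and 4.60 in wild-type samples. These synaptotagmin-like Rab27 effectors differed in opposite directions without overlap, Sytl1 by -0.32 (SE 0.10, limma adjusted p = 0.161) and Sytl2 by 0.34 (SE 0.11, limma adjusted p = 0.167). Sytl4, known as granuphilin, which docks insulin granules, differed by 0.00 (SE 0.11, 95% interval -0.26 to 0.25). Sytl5 had 10.38, 9.49 and 10.14 in mTR-/-G4 samples, against 10.53, 10.15 and 10.49 in wild-type samples. Its difference of -0.38 (SE 0.24) rested largely on mTR-/-G4 b, was -0.13 without that sample, and was -0.14 on its second probe. Rph3al, Rph3a, Sytl3 and Myrip differed by between -0.16 and 0.28, none with an unadjusted p under 0.05.

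Doc2b, a soluble C2-domain protein that senses calcium and promotes SNARE-mediated fusion in beta cells, had the largest difference of all members. Its log2 signals were 6.23, 5.80 and 5.87 in mTR-/-G4 a, b and c, against 5.18, 5.52 and 5.06 in wild-type a, b and c. All mTR-/-G4 values lay above all wild-type values, with mTR-/-G4 a the highest. The means were 5.97 ± 0.23 in mTR-/-G4 islets and 5.25 ± 0.24 in wild-type islets (SD, n = 3 each), a difference of 0.71 (SE 0.17, 95% interval 0.32 to 1.11, limma adjusted p = 0.125), or 1.64-fold. Without mTR-/-G4 a, which was also the sample with the highest acinar signal, the difference was 0.58, just under the threshold of 0.585. Among wild-type samples acinar signal was highest in a and Doc2b in b, and a relation between them was not tested. With the acinar signal of each sample as a covariate the Doc2b difference was 0.48 (SE 0.39, limma adjusted p = 0.758). Acinar signal did not overlap between the genotypes, so that fit cannot separate it from genotype, and the SE rose from 0.17 to 0.39. There 0 of the 45 members had an unadjusted p under 0.05, and the share of all genes with such a p is not given. In that fit 4.64% of all genes passed the threshold, and 11 of the 45 members changed sign. Rab3d differed by -0.33 (SE 0.27) and Exoc4 by -0.41 (SE 0.32). The brightest Rab3c probe turned to -0.27 (SE 1.10), while the second differed by 0.99 (SE 0.27). Doc2b is among the exocytosis genes that the study itself drew from these samples, so its direction here is not independent evidence.

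**Figure D3:**
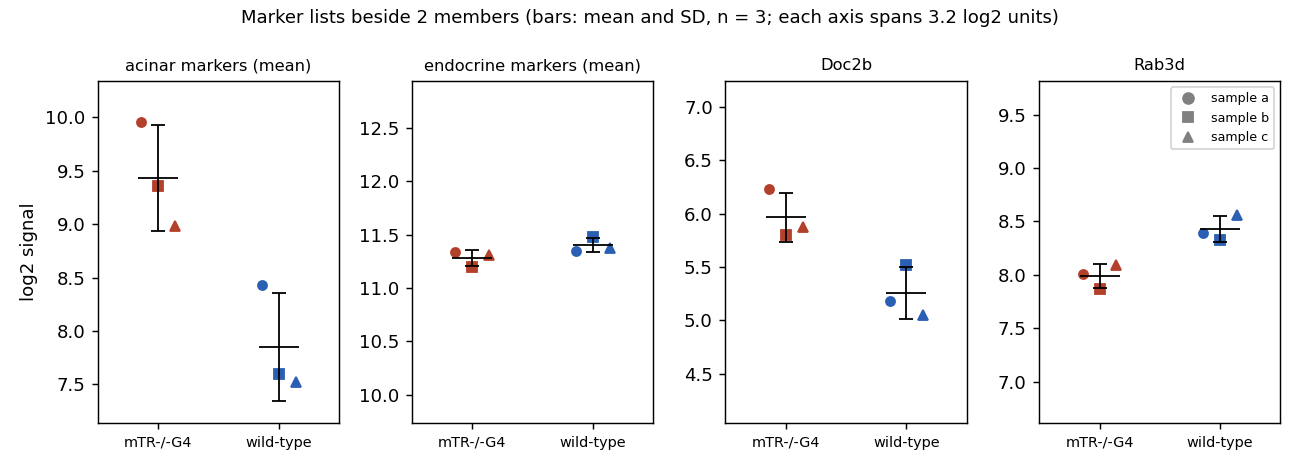
Mean log2 signal of the acinar and the endocrine marker lists and log2 signal of Doc2b and Rab3d in the 3 mTR-/-G4 and 3 wild-type samples, with mean and SD. The acinar markers and Doc2b do not overlap between genotypes, while Rab3d is lower in every mTR-/-G4 sample. Acinar markers and Doc2b are highest in mTR-/-G4 a, but among wild-type samples acinar markers are highest in a and Doc2b in b.

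Doc2a, which is close to Doc2b in sequence, differed by 0.18 (SE 0.09) with no overlap. Its probe was dim, and when the 6 arrays were given 1 common distribution the difference turned to -0.04. Complexins clamp and then assist the assembled SNARE complex. Cplx2 had 8.29, 8.02 and 8.26 in mTR-/-G4 samples, against 7.96, 8.19 and 8.02 in wild-type samples, and differed by 0.13 (SE 0.12). Its genotypes overlapped, as did those of Cplx1, which differed by 0.06 (SE 0.17). Cadps, the CAPS protein that primes granules for release, had 10.04, 10.01 and 10.27 in mTR-/-G4 samples, against 10.31, 10.51 and 10.45 in wild-type samples. It was lower without overlap, by a small margin between mTR-/-G4 c and wild-type a, and the difference was -0.31 (SE 0.12, limma adjusted p = 0.195). It was -0.12 when the 6 arrays were given 1 common distribution and 0.00 with the acinar covariate. Its paralog Cadps2 differed by 0.03 on its brightest probe and by 0.28 and -0.17 on the others.

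The exocyst tethers vesicles to the plasma membrane. Exoc4, its Sec8 subunit, had 5.91, 5.69 and 5.72 in mTR-/-G4 samples, against 6.10, 6.24 and 6.50 in wild-type samples. The groups were separate and the difference was -0.51 (SE 0.14, 95% interval -0.83 to -0.19, limma adjusted p = 0.140), which corresponds to 1.42-fold lower and did not pass. Exoc5 had 8.53, 8.0 and 8.42 in mTR-/-G4 samples, against 8.31, 8.52 and 8.48 in wild-type samples, and overlapped. Exoc6 differed by 0.01 (SE 0.11).

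**Figure D4:**
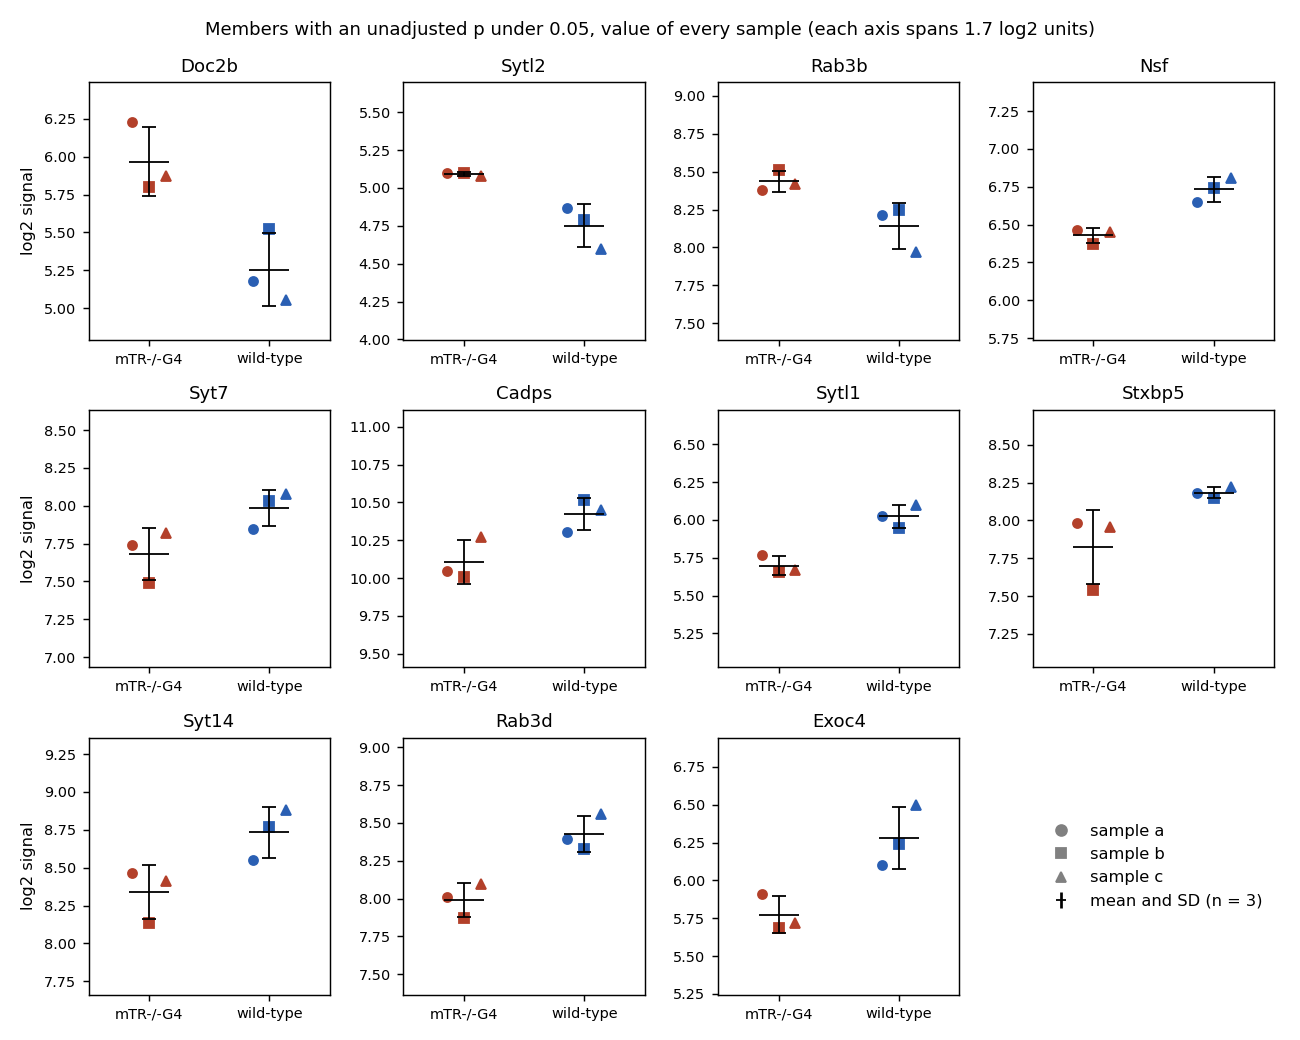
Log2 signal in each of the 3 mTR-/-G4 and 3 wild-type samples of the 11 members with an unadjusted p under 0.05, with mean and SD and the sample letter as the marker shape. In all 11 the genotypes do not overlap, which selection by p with 3 against 3 samples favours, and Doc2b has the largest difference in means.

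The direction of the members went with the signal of their probes. Of the 22 members with a mean log2 signal above 7, 16 were negative, with a median of -0.13, and over all genes above 7 the share was 67.2% with a median of -0.10. Of the 23 members at or below 7, 18 were positive, with a median of 0.12, where all such genes had a median of 0.15 and 27.2% were negative. The sample with the narrowest spread, mTR-/-G4 b, held the lowest of the 6 values in 15 of the 22 brighter members and the highest in 9 of the 23 dimmer ones. Without it, 12 of the 22 brighter members were negative and 16 of the 23 dimmer ones positive. When the 6 arrays were given 1 common distribution, 12 of 22 were negative and 12 of 23 positive, with medians of -0.01 and 0.05. Doc2b at 0.70, Exoc4 at -0.46, Rab3d at -0.31 and Rab3b at 0.42 kept their directions in these values. Cadps at -0.12, Syt7 at -0.16 and Sytl2 at 0.19 no longer had an unadjusted p under 0.05. Others gained one, among them Cplx2 at 0.26 and Rab27a at 0.21. In these values 12 members had such a p, in place of 11, and the share of all genes with it is not given. Snap25 differed by -0.04 in place of -0.30. Of the 45 members 10 changed sign, none of them among the 11 with an unadjusted p under 0.05 as deposited.

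**Figure D5:**
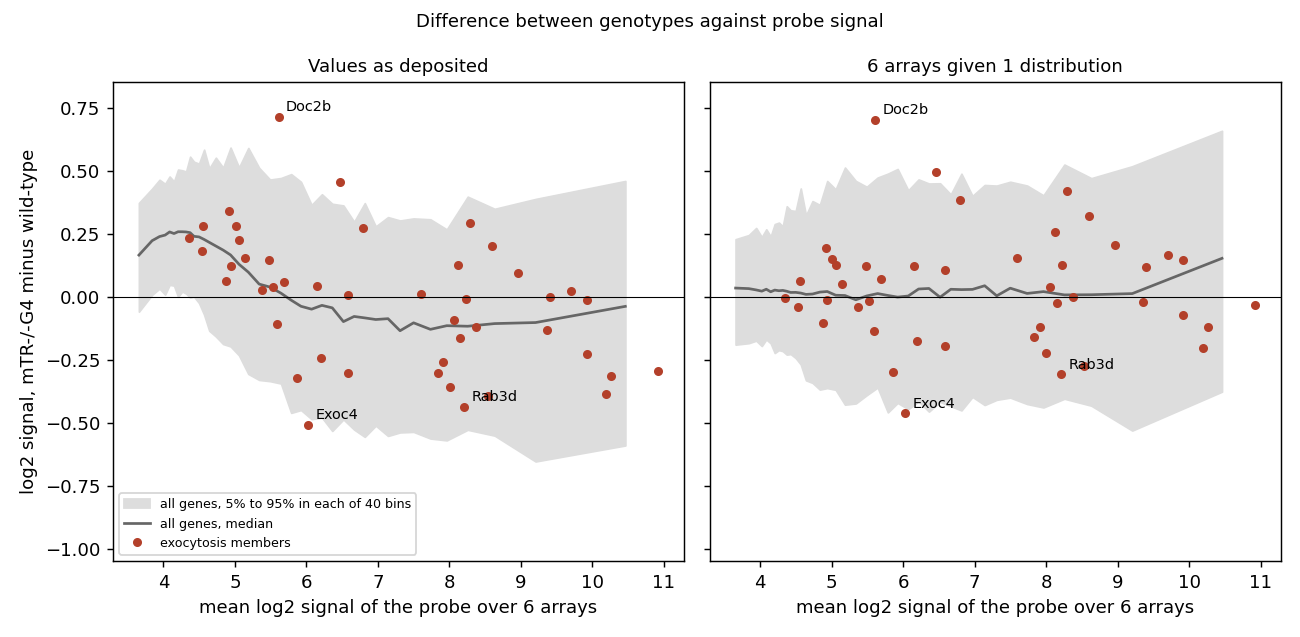
Difference in log2 signal, mTR-/-G4 minus wild-type, against the mean log2 signal of the probe as deposited, for the 45 members (points) and all genes (line for the median and grey band for the range from 5% to 95% in each of 40 bins). In the deposited values the median of all genes is positive at low and negative at high signal, and it lies near 0 once the 6 arrays have 1 distribution, except in the brightest bin, where it is 0.15.

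A further list, the other exocytosis genes, held 3 that passed, all as lower. It was made of relatives of the members and of other traffic genes, such as Gdi2, Myo5a and Mlph. Of its 56 genes 50 had a probe, 0 passed as higher and 3 passed as lower. That is 6.00%, against 1.64% of all genes as lower and 3.57% in either direction. Their median difference was -0.04, and 14 of the 50 had an unadjusted p under 0.05, where 22.1% of all genes did. Stxbp6, known as amisyn, a SNARE-domain protein that binds syntaxin, had 5.69, 5.47 and 5.67 in mTR-/-G4 samples, against 6.10, 6.29 and 6.51 in wild-type samples. It was lower without overlap by 0.69 on the log2 scale (SE 0.14, limma adjusted p = 0.0997). Exoc6b, another exocyst subunit, had 6.45, 6.18 and 6.47 in mTR-/-G4 samples, against 6.81, 7.0 and 7.14 in wild-type samples, and differed by -0.61 (SE 0.13, limma adjusted p = 0.115). Vamp5, a VAMP best known from muscle, had 6.43, 5.17 and 6.69 in mTR-/-G4 samples, against 7.81, 8.09 and 6.66 in wild-type samples. Its difference of -1.42 was the largest of the list, but wild-type c lay below mTR-/-G4 c (SE 0.49, limma adjusted p = 0.181). Vamp5 had 2 probes of its own, and only the brighter was read. Without mTR-/-G4 b 1 of the 50 genes passed as lower, and with the acinar signal as a covariate 0 did.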

How the data were processed

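Total RNA of purified islets was hybridised to Affymetrix mouse exon arrays, 1 per sample. The deposited values are log2 signals that the authors made with Robust Multichip Analysis in Partek, whose version was not given in the sources used here. Build mm9 comes from the submitters' processing notes, and its coordinates were not needed. No further scaling was applied. Of 34502 probes, 25362 had 1 gene symbol in the platform annotation, 2238 had several and 6902 had none listed. Arrays carry no read depth, so precision is limited by 3 samples per genotype. Whether samples come from separate mice is read from the study's legend, and the p-values measure the spread between these samples.

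The genotypes were compared with limma 3.58.1 in R 4.3.3 (lmFit and eBayes) over all probes, unpaired and unfiltered, with Benjamini-Hochberg adjustment over all probes. The fit was tested on simulated data. The study's methods do not say which test gave its array p-values, and their t-test was an alternative. The other alternatives were quantile normalization, centring on the array median, a filter on dim probes, a trended variance prior, array weights (limma's gene-by-gene estimate), a replicate block, the average over a gene's probes, an acinar covariate and leaving out each sample. Symbols of the marker lists and of the other exocytosis genes were also matched through older names in a RefSeq gene table. The members and lists were chosen with earlier results of these data known. Values by sample are given for members or probes past the threshold, the 6 largest differences, the brightest member of each role, the core fusion genes of beta cells (Stx1a, Snap25, Vamp2, Syt7, Rab3a and Rab27a) and, chosen after their values were seen, those with an unadjusted p under 0.05.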

Additional observations from a re-analysis of the deposited data

How the results depend on the processing

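Of 15 alternatives, the members that passed changed in 5. Centring each array on its median made Exoc4 pass as lower (1 member lower, difference -0.61), where 3.93% of all genes passed in either direction. It gave a member median of -0.0869 where all genes had 0.00. It also raised the other exocytosis genes passing as lower to 6 of 50. Averaging a gene's probes gave 2 members higher, Doc2b and Rab3c, where 3.28% of all genes passed. The acinar covariate gave 0 higher, where 4.64% of all genes passed. Leaving out 1 sample at a time gave 0 to 1 members higher, with 0 without mTR-/-G4 a, where 6.62% of all genes passed. It gave 0 to 1 lower, with 1 without wild-type a (Exoc4 at -0.60), where 4.33% of all genes passed. The cause of these changes was not tested. The number of all genes that passed was 722 as reported, 481 by the methods' t-test, 1337 without mTR-/-G4 a and 466 without mTR-/-G4 b. By that t-test 1 member was higher and 0 lower, where 2.38% of all genes passed. There 12 members had p under 0.05 whatever their fold change, and the share of all genes with such a p is not given.

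Among the 11 members with an unadjusted p under 0.05, Doc2b, Rab3d, Sytl1 and Exoc4 kept it in 14 of the 15 alternatives, the exception being the acinar covariate, and Syt7 and Cadps in 6. Of all 45 members 24 kept their sign in every alternative that gave them a value and 21 did not, and the filter on dim probes left 37 members. Rab3c, which passed as an average of its probes, was -0.27 with the acinar covariate and -0.00195 without wild-type c on its brightest probe. Genotypes did not overlap for 13 to 27 members across the alternatives that change values or samples. The 27 came from leaving out mTR-/-G4 a, and smaller groups separate more easily. The share over all genes is not given for these alternatives, so the range cannot be read as particular to the members.

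Whether the sample letters pair the samples could not be decided from these values, since each genotype has 3 samples. Deviations of same-lettered samples correlated at 0.04, -0.16 and 0.11, and those of other letters at between -0.17 and 0.14. With the letter as a replicate block 1 member was higher (Doc2b) and 0 were lower, where 3.91% of all genes passed, and the median was 0.01. There 8 members had an unadjusted p under 0.05, in place of 11, and the share of all genes with such a p is not given.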
